A study of Homo sapiens with 2 samples.

Results

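The 10 genes described here encode heterogeneous nuclear ribonucleoproteins (hnRNPs): HNRNPA1, HNRNPA2B1, HNRNPC, HNRNPD, HNRNPDL, HNRNPH1, HNRNPK, HNRNPM, HNRNPR and HNRNPU. They were taken by gene symbol. They are 10 of the 16645 annotated genes with a read, and hold 1347 of the 237608 transcript models in the table of read counts. The reads come from GM12878, an Epstein-Barr virus-transformed human B-lymphoblastoid line, sequenced as native RNA on an Oxford Nanopore instrument in 2 libraries, replicates 1 and 2. Both libraries belong to 1 group, and the labels name no treatment or other condition and do not say whether the replicates came from separate cultures. Every test below therefore compares the reads of these 2 libraries, and its p-value covers counting error only.

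hnRNPs are abundant nuclear proteins that coat nascent transcripts, and most bind RNA through RNA recognition motifs or KH domains. They are best known as regulators of alternative splicing, where many of them repress exons that SR proteins favour, and they also act in 3′ end processing, export, translation and decay of mRNA. Several limit their own production by altering the splicing of their own transcripts. Many carry glycine-rich tails of low sequence complexity, and in several genes alternative exons change the length of that tail.

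The libraries held 1360368 reads (replicate 1) and 1510998 reads (replicate 2), of which 6519 (0.479%) and 6954 (0.460%) fell on the 10 genes. B cell markers were read in both libraries, from a mean of 43.0 CPM (reads of a gene, scaled so that each library has the same total) for PAX5 to 7927 for CD74, while CD3D, LYZ, GATA1, HBB and ALB had 0 reads in either library, and CD3E, CD14 and COL1A1 had 2 to 16. Reads of replicate 2 were assigned to shorter models over all annotated genes, at a mean of 4.19 exons per read against 5.14 in replicate 1. A direct RNA read is 1 RNA strand whatever its length, so levels of different genes are compared in CPM without division by length.

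HNRNPA1 had the highest mean level of the 10 genes and HNRNPR the lowest, with a 23.5-fold range between their mean levels. HNRNPA1, whose protein binds splicing silencers and favours exon skipping, had 2234 and 2383 reads in replicates 1 and 2. That is 1610 ± 46.0 CPM (SD, n = 2), rank 114 of all annotated genes, from a gene at chr12:54280193-54287088 (plus strand). HNRNPA2B1, its closest relative here, had 857 and 880 reads (606 ± 33.6 CPM). HNRNPK, a KH domain protein that binds cytosine-rich RNA, had 838 and 862 reads (593 ± 32.2 CPM). These 2 genes could not be ordered, because their ranges over the libraries overlap. HNRNPC, which binds uridine tracts as a tetramer, had 733 and 755 reads (519 ± 27.7 CPM). HNRNPD, also called AUF1, binds AU-rich elements and takes part in mRNA decay. It had 656 and 701 reads (473 ± 12.9 CPM). HNRNPU, a large nuclear protein that binds both RNA and chromatin, had 474 and 463 reads (327 ± 29.7 CPM).

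The remaining 4 genes had the lowest levels. HNRNPM, which binds GU-rich RNA, had 325 and 342 reads (233 ± 8.89 CPM). HNRNPDL, the paralog of HNRNPD, had 241 and 287 reads (184 ± 9.04 CPM). HNRNPR, a relative of SYNCRIP, had 91 and 106 reads (68.5 ± 2.30 CPM). HNRNPH1, which binds runs of guanosine, is the one whose libraries differ visibly in the plot of levels. It had 70 and 175 reads, or 51.5 and 116 CPM, and its range spans the level of HNRNPR. All other neighbours in the order had ranges that do not overlap. HNRNPH1 lies at chr5:179614178-179634784 and HNRNPR at chr1:23303771-23344336, both on the minus strand.

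**Figure D1:**
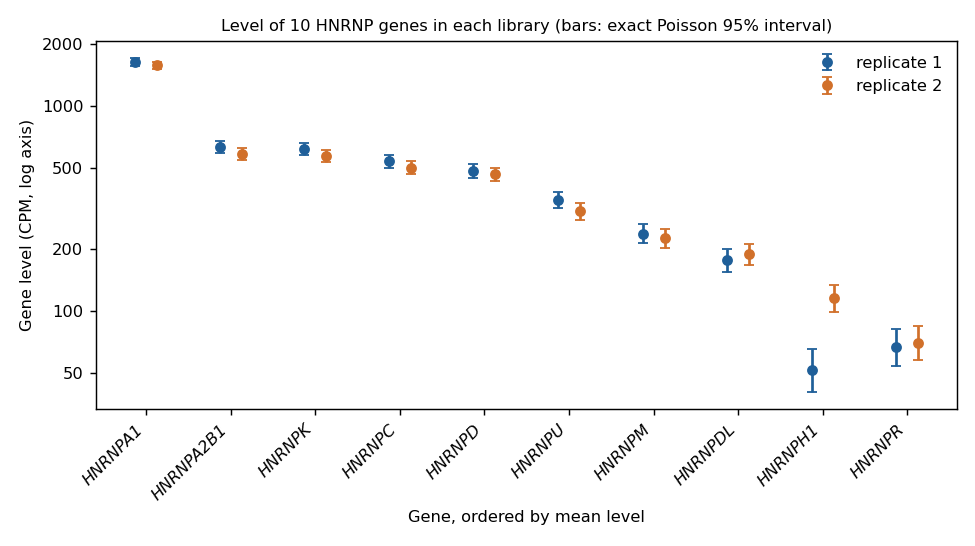
Level of each of the 10 genes in CPM (log axis) in replicate 1 (blue) and replicate 2 (orange), ordered by mean level, with exact Poisson 95% intervals. The points of each gene lie close together except for HNRNPH1, at 51.5 CPM in replicate 1 and 116 CPM in replicate 2.

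HNRNPH1 was the 1 member of 10 whose count differed between the libraries. It was higher in replicate 2. Among all 10634 genes tested the share called was 5.05%, with 2.72% higher and 2.33% lower. Its reads were 2.25-fold higher in replicate 2 (log2 ratio 1.16, Benjamini-Hochberg adjusted p = 3.23e-07, exact binomial test, two-sided, on the totals of both libraries). The log2 ratios of the other 9 members lay between -0.19 (HNRNPU, adjusted p = 0.315 by the same exact test) and 0.10 (HNRNPDL), and the median of the 10 was -0.07 beside 0.01 for all genes tested. In RNA from a culture, fewer cells that express a gene and less of its RNA per cell cannot be told apart. The extra reads of HNRNPH1 were not in its annotated transcripts, which had 18 reads in each library. Unspliced reads that overlap the gene without matching its splicing, the genomic category, were 29 and 99. All of these fell in 1 single-exon model of 342 bases (ENCODEHT000523731, singled out after its values were seen). Incomplete splice matches (ISM), whose junctions are a consecutive part of those of an annotated transcript, were 16 and 50. With known models alone the log2 ratio of HNRNPH1 was 0.13 (adjusted p = 0.966), and without genomic models it was 0.80 (adjusted p = 0.0482, exact binomial test). Over the 6 alternative settings tried its adjusted p ranged from 2.25e-07 to 0.966.

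Known models of 5 of the genes differ by coding segments described here that change the protein, and reads of known models that span them can be counted for each form. The segments are printed 5′ to 3′ on the strand of the gene from GRCh38, by the exon structures of GENCODE release 29. Capitals mark the segment that is present or absent, and lower case marks up to 15 coding bases on each side of it in the transcript. The first line is exon 2 of HNRNPA2B1-201 (chr7:26197831-26197866, minus strand), which turns the A2 form of the protein into the B1 form. The second extends exon 3 of HNRNPC-230 (chr14:21230958-21230996, minus strand) and gives the longer of the main forms of the protein. HNRNPD has an alternative exon 2 (chr4:82371528-82371584, minus strand) and an alternative exon 7 (chr4:82356537-82356683, minus strand), whose combinations make the AUF1 isoforms. The fifth line is exon 6 of HNRNPDL-201 (chr4:82426463-82426633, minus strand). The last extends exon 1 of HNRNPU-226 (chr1:244863617-244863673, minus strand).
HNRNPA2B1 exon 2: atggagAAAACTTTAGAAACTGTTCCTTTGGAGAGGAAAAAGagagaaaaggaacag
HNRNPC exon 3 extension: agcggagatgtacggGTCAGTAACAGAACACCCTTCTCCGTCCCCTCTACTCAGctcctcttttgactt
HNRNPD exon 2: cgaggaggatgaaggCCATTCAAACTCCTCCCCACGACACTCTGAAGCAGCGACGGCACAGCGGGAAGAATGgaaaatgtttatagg
HNRNPD exon 7: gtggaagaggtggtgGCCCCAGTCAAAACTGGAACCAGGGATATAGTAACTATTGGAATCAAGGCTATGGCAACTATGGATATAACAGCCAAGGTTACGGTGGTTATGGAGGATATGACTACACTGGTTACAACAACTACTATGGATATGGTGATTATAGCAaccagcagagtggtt
HNRNPDL exon 6: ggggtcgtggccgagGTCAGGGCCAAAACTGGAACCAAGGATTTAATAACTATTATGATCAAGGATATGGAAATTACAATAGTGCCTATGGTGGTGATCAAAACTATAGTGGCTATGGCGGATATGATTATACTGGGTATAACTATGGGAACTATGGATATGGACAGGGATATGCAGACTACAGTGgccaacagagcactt
HNRNPU exon 1 extension: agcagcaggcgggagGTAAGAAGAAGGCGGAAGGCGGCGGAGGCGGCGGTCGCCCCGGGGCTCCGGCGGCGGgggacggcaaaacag

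All 6 segments have a length divisible by 3, so each adds residues without shifting the reading frame, and none holds an in-frame stop codon. The tail exons of HNRNPD and HNRNPDL, singled out after their letters were seen, are rich in codons for glycine (GGN) and tyrosine (TAT or TAC). HNRNPD exon 7 has 12 GGN and 14 tyrosine codons among 48 whole codons, and HNRNPDL exon 6 has 14 and 15 among 56. The HNRNPD and HNRNPDL exons are related sequences, with 110 identical bases over 175 columns of a global alignment (62.9%). The HNRNPA2B1, HNRNPC and HNRNPD exon 2 segments have 0 GGN and 0 tyrosine codons, and the HNRNPU extension has 7 GGN codons of 18.

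The paralogs HNRNPD and HNRNPDL, which lie side by side on the minus strand of chromosome 4 (chr4:82352498-82374503 and chr4:82422564-82430408), used these related exons in different proportions, with intervals that do not overlap. Counting reads of known models that span the site, HNRNPD exon 7 was in 126 of the 324 reads of replicate 1 (38.9%, with a Wilson 95% interval from 33.7 to 44.3) and in 86 of the 240 reads of replicate 2 (35.8%, 30.0 to 42.1). HNRNPDL exon 6 was in 134 of 140 (95.7%, 91.0 to 98.0) and 90 of 93 (96.8%, 90.9 to 98.9). Among known-model reads that span the site, nearly all of HNRNPDL had the included form, and HNRNPD had both forms in each library.

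HNRNPD exon 2 was in 302 of 324 reads (93.2%) and 223 of 240 (92.9%), so most of these known-model reads of HNRNPD had the exon near the start, and most lacked the one near the end. HNRNPA2B1 exon 2 was in 35 of 204 reads (17.2%, 12.6 to 22.9) and 11 of 93 (11.8%, 6.73 to 20), which puts the A2 form above the B1 form among these reads in both libraries. The HNRNPC extension was in 24 of 38 reads (63.2%) and 7 of 13 (53.8%), and the HNRNPU extension in 18 of 90 (20%) and 9 of 27 (33.3%). For each segment the interval of replicate 1 overlaps that of replicate 2, and the intervals of HNRNPC and HNRNPU are wide at these read numbers. All of these counts leave out ISM, NIC, NNC and genomic reads.

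**Figure D2:**
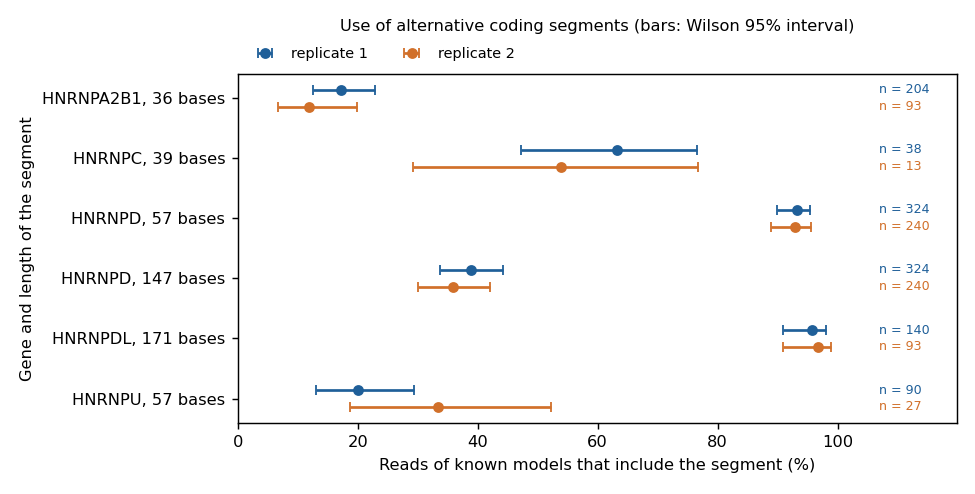
Share of reads of known models that include each alternative segment, in replicate 1 (blue) and replicate 2 (orange), with Wilson 95% intervals and the number of spanning reads at the right. Inclusion runs from 11.8% and 17.2% for HNRNPA2B1 to 95.7% and 96.8% for HNRNPDL, and the libraries overlap at each segment.

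Of 20 known models of the members with enough reads, 0 differed between the libraries in their share of the known reads of the gene (two-sided Fisher's exact test, Benjamini-Hochberg adjustment), while 15.3% of the 3792 models tested over all genes did, 8.2% higher and 7.07% lower. At an unadjusted p under 0.05, 4 of the 20 passed, beside 940 of the 3792 models over all genes. The 4 were HNRNPU-205, HNRNPA2B1-205, HNRNPA1-211 and HNRNPC-206. With the minimum raised to 20 reads a model, 1 member model passed the adjusted test, beside 527 models over all genes. It was HNRNPA2B1-205 (adjusted p = 0.0461 by Fisher's exact test, from 0.0461 to 0.580 over the alternatives). With all reads of the gene as denominator 9 member models passed, beside 1343 of the 3792 models over all genes. With this denominator the share of a model also moves with the share of all known reads in the gene. In the 5 genes that follow, the leading known model was the same in both libraries. HNRNPA1-203, a model of 10 exons, had 1020 and 684 reads, or 93.9% and 92.1% of the known reads of the gene. HNRNPDL-201 had 126 and 85 (90% and 91.4%), HNRNPA2B1-202 had 169 and 82 (77.2% and 70.7%), and HNRNPD-203 had 198 and 154 (61.1% and 64.2%) beside 104 and 69 for HNRNPD-201. HNRNPU-205 had 72 and 18 (65.5% and 41.9%).

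Known models held a minority of the pooled reads of the 10 genes in both libraries, and a majority in HNRNPDL in replicate 1 (58.1%). Each read belongs to a category of the table: known models match an annotated transcript, ISM models a part of one, NIC models join annotated splice sites in an unannotated way, NNC models have an unannotated splice site, and genomic models do not match the splicing of the gene. Over the 10 genes known models took 32.5% of reads in replicate 1 and 21.2% in replicate 2, against 56.5% and 46.4% over all annotated genes. These are shares of pooled reads, to which the genes with most reads contribute most. Per gene, the median known share was 24.4% and 12.6% over the 10 members, beside 32.5% and 17.5% over the 6340 genes tested. ISM models took 31.5% and 43.3%, NIC models 12.1% and 6.07%, NNC models 4.59% and 2.59%, and genomic models 19.4% and 26.8%. Genomic models took 10.9% and 15.3% over all genes. Of the 1347 models, 818 had a single read and 392 were read in both libraries.

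**Figure D3:**
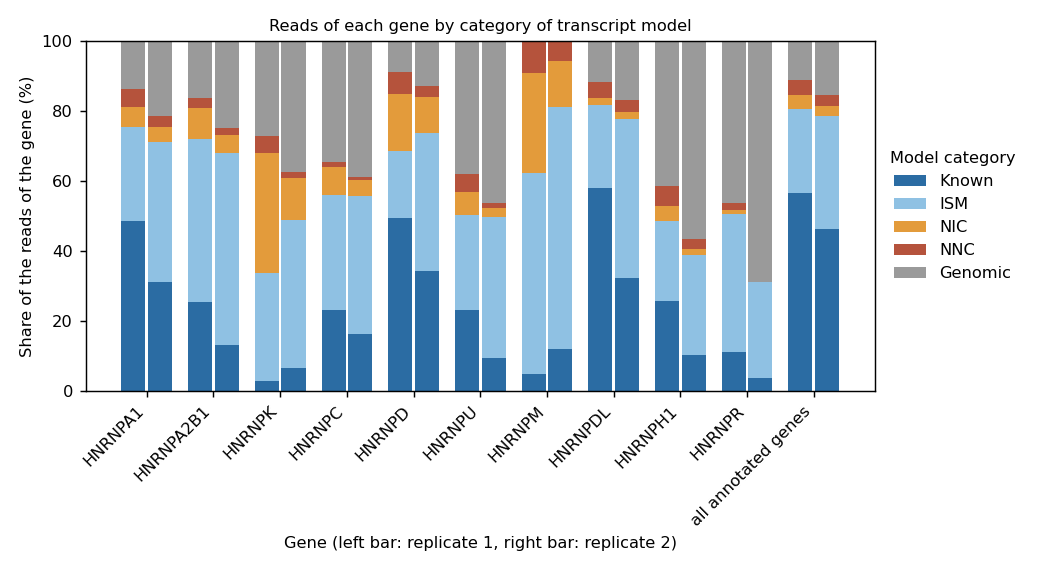
Share of the reads of each gene in each model category, with replicate 1 as the left and replicate 2 as the right bar, and all annotated genes last. By the mean over the libraries, known models (dark blue) are largest in HNRNPDL, HNRNPD and HNRNPA1 and smallest in HNRNPK, HNRNPR and HNRNPM, and genomic models (grey) are nearly missing in HNRNPM.

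The known share of reads differed between the libraries in 9 of the 10 members, 7 lower and 2 higher in replicate 2, while 27.1% of the 6340 genes tested were called, 26.9% lower and 0.268% higher. The number called depends on depth. Among the 922 genes with at least 200 reads in each library, a minimum chosen after the values were seen, 66.6% were lower, and 6 of the 8 members of that depth were. In HNRNPA1 known models took 48.6% and 31.2% of reads (adjusted p = 1.26e-31), in HNRNPDL 58.1% and 32.4% (8.51e-08), and in HNRNPD 49.4% and 34.2% (3.97e-07), by two-sided Fisher's exact test. HNRNPA2B1 went from 25.6% to 13.2%, HNRNPU from 23.2% to 9.29%, HNRNPC from 23.2% to 16.2% and HNRNPH1 from 25.7% to 10.3%. Without genomic models HNRNPH1 was no longer called (adjusted p = 0.108, Fisher's exact test; 0.00207 to 0.114 over the alternatives), although its difference was larger, at -20.2 percentage points beside -15.4. HNRNPR, with 10 of 91 and 4 of 106 known reads, was not called.

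HNRNPK and HNRNPM went the other way. Known models took 2.74% of HNRNPK reads in replicate 1 and 6.50% in replicate 2 (adjusted p = 0.00232), and 4.92% and 12.0% of HNRNPM reads (adjusted p = 0.00774, Fisher's exact test). Of the 922 deep genes 6 were higher in replicate 2, and these are 2 of them. In neither gene were the known reads protein-coding transcripts. HNRNPK-211, a 2-exon model annotated as a retained intron (chr9:83969198-83970786, minus strand), had 21 of 23 and 55 of 56 of the known reads of HNRNPK. Its own intron holds the gene of the microRNA precursor MIR7-1. HNRNPM-216, a single-exon processed transcript of 1809 bases (chr19:8487302-8489110, plus strand), had 16 of 16 and 39 of 41 of those of HNRNPM. Counting models with at least 2 exons, the difference in HNRNPM was 0.66 percentage points (adjusted p = 0.450, Fisher's exact test; 0.00463 to 0.450 over the alternatives).

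Retained-intron and other non-coding annotations also carried most known reads of HNRNPC. HNRNPC-206, a 3-exon retained-intron model of 724 bases (chr14:21210937-21212002, minus strand), had 130 of 170 known reads in replicate 1 and 108 of 122 in replicate 2 (76.5% and 88.5%). The coding models HNRNPC-230 and HNRNPC-205, which share its 3′ end at position 21210937, had 17 and 5, and 10 and 3. These counts cover the assignment, and whether the RNA read as HNRNPC-206 kept an intron was not tested. Small known models of this kind were minor in HNRNPA1, where HNRNPA1-205, annotated as a target of nonsense-mediated decay, had 17 and 13 reads and the retained intron HNRNPA1-211 had 6 and 13. In HNRNPA2B1 the 2-exon processed transcript HNRNPA2B1-205 had 10 and 15 reads and the retained intron HNRNPA2B1-206 had 5 and 8. Over the 10 genes retained-intron models took 8.08% and 13.3% of known reads, against 4.65% and 8.09% over all protein-coding genes. HNRNPC (132 and 109 reads) and HNRNPK (23 and 56) held most of them. In the other 8 members, a set formed after these values were seen, retained-intron models had 16 and 32 reads, 0.832% and 2.47% of known reads. That is below the shares over all protein-coding genes, from which no gene with many such reads was removed.

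ISM reads rose against known reads in 7 of the 10 members in replicate 2 and passed the test in the other direction in 0, while 35.5% of 4502 genes tested were called, 35.3% higher and 0.178% lower. Among 693 genes with at least 200 such reads in each library 67.2% were higher, as were 5 of 7 members of that depth. The ISM share of known and ISM reads was 28.9% and 58.3% in HNRNPDL, 53.8% and 81.3% in HNRNPU, 28.0% and 53.6% in HNRNPD, and 35.7% and 56.2% in HNRNPA1. HNRNPA2B1, HNRNPC and HNRNPH1 were the other called genes, and HNRNPH1 lost its call at a minimum of 10 reads (adjusted p = 0.0559, Fisher's exact test; 0.00242 to 0.0559 over the alternatives). In HNRNPK the share was 91.9% and 86.7% and in HNRNPM 92.1% and 85.3%, neither called. At a minimum of 50 reads HNRNPM was called lower (adjusted p = 0.0435, Fisher's exact test; 0.0435 to 0.674 over the alternatives). Most pooled ISM reads of the 10 genes kept the 3′ end, the suffix subtype: 81.9% and 87.5%, against 68.4% and 68.0% over all genes. HNRNPA2B1 lay below all genes in both libraries (58.6% and 67.4%), and HNRNPDL was near them (70.2% and 69.2%). The other members except HNRNPR lay above in both libraries. HNRNPR had another make-up in replicate 1, with 15 prefix reads, which keep the 5′ end, of 36 ISM reads, and 2 of 29 in replicate 2. In HNRNPM, HNRNPR and HNRNPU the leading ISM model outnumbered every known model of the gene over the libraries together. It was a 3-exon suffix model of HNRNPM with 51 and 78 reads and a 4-exon suffix model of HNRNPU with 43 and 55. In HNRNPR a 10-exon prefix model with 10 and 2 reads and a 3-exon model with 8 and 4 had the same total.

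The number of exons per read was also lower in replicate 2. It is that of the model to which a read was assigned, so it depends on the same assignment as the categories. The mean over the reads of the 10 genes was 6.98 exons in replicate 1 and 5.34 in replicate 2 (6.16 ± 1.16, SD, n = 2), and each member had the lower mean in replicate 2. Reads in models with at most 1 exon fewer than the principal annotated model, called near-complete here, were 63.5% and 42.5% of HNRNPA1 reads, 64.9% and 43.1% of HNRNPD reads, and 69.3% and 42.9% of HNRNPDL reads. These 3 genes have principal models of 8 to 10 exons. HNRNPC, with 9 exons, had 13.6% and 6.23%. In the 6 genes whose principal models have 11 to 17 exons the near-complete share was 35.9% and 17.7% in HNRNPA2B1, 33.9% and 10.6% in HNRNPK, 29.5% and 9.07% in HNRNPU, 28.6% and 13.2% in HNRNPM, 31.4% and 12.6% in HNRNPH1, and 23.1% and 6.60% in HNRNPR. The part of read length in the category differences between the libraries was not tested.

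**Figure D4:**
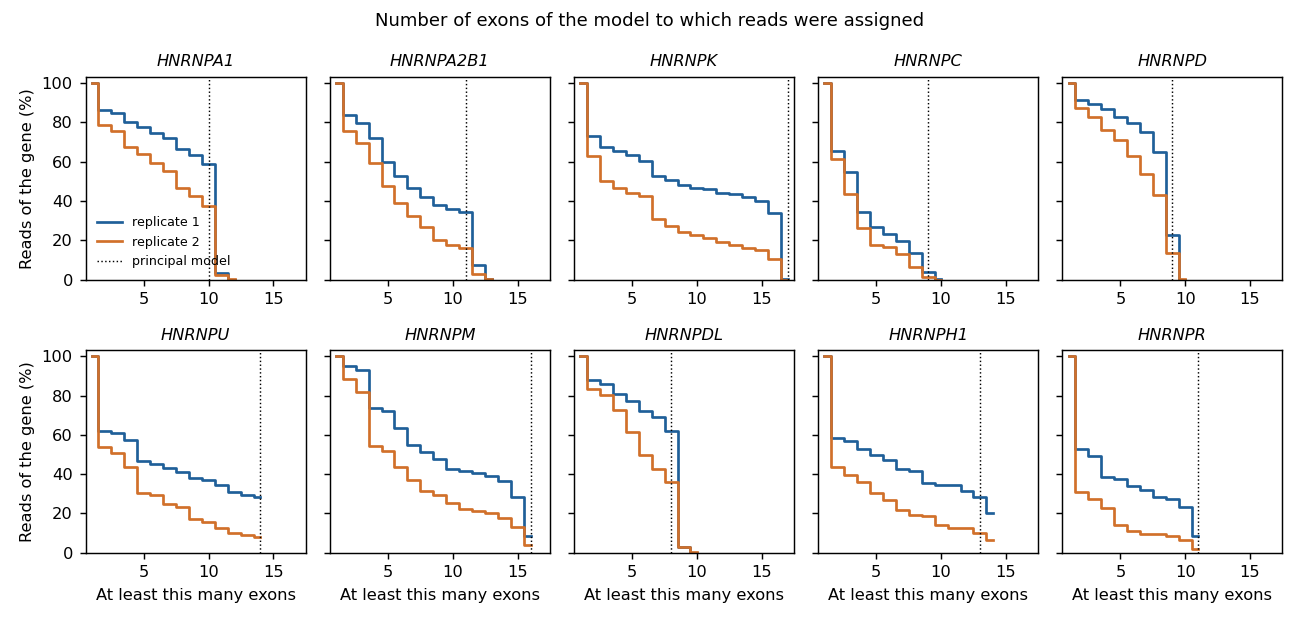
Share of the reads of each gene in models with at least the number of exons on the horizontal axis, for replicate 1 (blue) and replicate 2 (orange); the dotted line marks the exon number of the principal annotated model. The curve of replicate 2 lies below that of replicate 1 over most of its range in every gene, and the largest step falls at the principal exon number in HNRNPA1 and HNRNPDL and at 1 exon fewer in HNRNPD.

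In HNRNPK and HNRNPM long reads were read, but in the table used here 0 reads of either library were assigned to an annotated protein-coding model of these genes, which number 6 and 11. A count of 0 here covers the assignment, not the RNA. Of 1821 protein-coding genes with at least 100 reads in each library, 64 (3.51%) were without such a read. Near-complete reads of HNRNPK were 284 and 91, of which 90.1% and 89.0% were NIC and the rest NNC. Those of HNRNPM were 93 and 45, of which 83.9% and 75.6% were NIC. In HNRNPA1, HNRNPA2B1, HNRNPD, HNRNPDL and HNRNPU known models had between 64.7% and 83.8% of near-complete reads in each library. HNRNPC lay between, with 37.0% and 25.5% known and 54.0% and 61.7% NIC. So did HNRNPR, with 38.1% and 42.9% known and 52.4% and 57.1% ISM of only 21 and 7 near-complete reads. HNRNPH1 had 77.3% and 54.5% known, of 22 near-complete reads in each library.

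**Figure D5:**
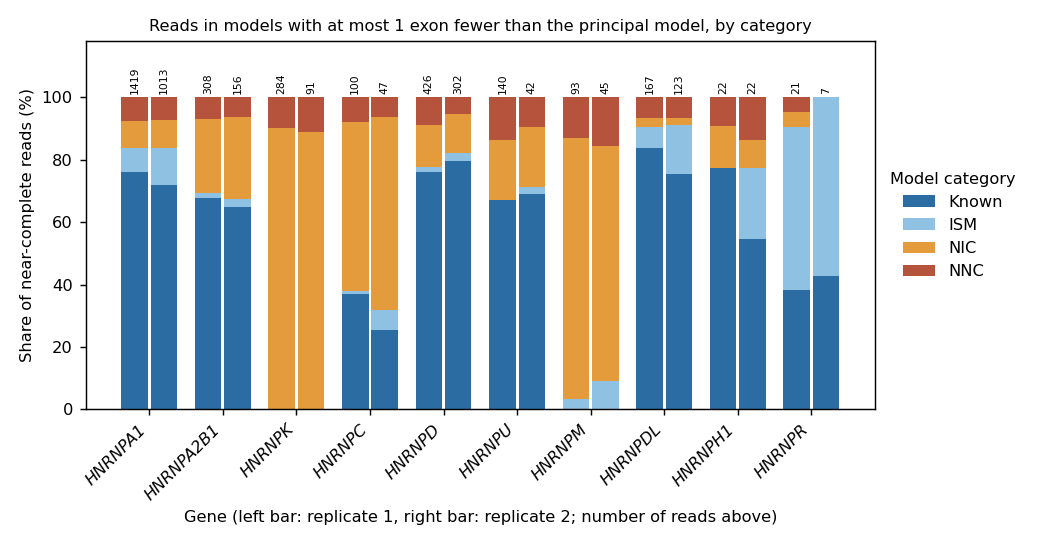
Near-complete reads of each gene by model category, with replicate 1 left and replicate 2 right, and the number of reads above each bar. HNRNPK has no known (dark blue) part and HNRNPM none either, while NIC models (orange) fill most of their bars in both libraries.

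The unannotated splice forms of HNRNPK were spread over many models. The model with most reads among those with at least 10 in each library, the 16-exon NIC model ENCODEHT000579022, had 29 and 12 reads, 3.46% and 1.39% of the gene. In HNRNPM a 15-exon NIC model had 36 and 15 reads, 11.1% and 4.39% of the gene. HNRNPA1 had an NNC model and a NIC model of 10 exons each, with 69 and 40 and with 64 and 41 reads. A 7-exon NIC model of HNRNPD had 42 and 26 reads, and an 8-exon NIC model of HNRNPC had 27 and 13. All 6 had fewer reads in replicate 2, as did both categories over all annotated genes. There NIC models had 55604 and 43377 reads and NNC models 58956 and 46907.

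The share of NIC and NNC among the reads of the known, ISM, NIC and NNC categories was lower in replicate 2 in 4 of the 10 members, while 3.93% of 4940 genes were called, all of them lower. It fell from 53.7% to 22.0% in HNRNPK (adjusted p = 5.50e-26), from 37.5% to 18.5% in HNRNPM (8.24e-06), from 24.9% to 15.4% in HNRNPD (0.00303) and from 19.0% to 7.63% in HNRNPU (0.00537), by Fisher's exact test. Among 768 genes with at least 200 such reads in each library 10.3% were lower, and 4 of the 8 members of that depth. The call for HNRNPU was lost when models with 1 read were left out (adjusted p = 0.0557, Fisher's exact test; 0.00316 to 0.0557 over the alternatives). With the same models left out HNRNPA2B1 was called (-5.41 percentage points, adjusted p = 0.0206, Fisher's exact test; 0.0206 to 0.314 over the alternatives). With all models, HNRNPA2B1 and the other 5 members that did not pass the test had the lower value in replicate 2. Near-complete reads were fewer in replicate 2 beside this, 91 against 284 in HNRNPK and 45 against 93 in HNRNPM, and their part in the lower shares was not tested.

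Genomic reads took a larger share in replicate 2 in 4 of the 10 members, and a smaller one in 0, while 10.4% of the 6340 genes were called, 10.4% higher and 0.0473% lower. The share was 13.7% and 21.4% in HNRNPA1 (adjusted p = 1.59e-09), 16.3% and 24.7% in HNRNPA2B1 (0.000528), 27.1% and 37.2% in HNRNPK (0.000257) and 46.2% and 68.9% in HNRNPR (0.0190), by Fisher's exact test. Among the 922 deep genes 29.7% were higher, and 3 of 8 members of that depth. The call for HNRNPR was lost when models with 1 read were left out (adjusted p = 0.0918, Fisher's exact test; 0.0115 to 1 over the alternatives). HNRNPM stood at the other end, with 0 of 325 genomic reads in replicate 1 and 1 of 342 in replicate 2. The median over the 10 members was 21.7% and 30.9%, beside 6.53% and 11.0% over all genes tested, so the level of genomic reads was high in both libraries. With models of at least 2 exons only, 0 members were called, since genomic models of these genes are single intervals with few exceptions.

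Reads assigned to copies of the members, or to overlapping genes on the same strand, were fewer than those of the members. Together 13 annotated symbols formed from a member's name, mostly pseudogenes, had 214 and 305 reads, of which 8 HNRNPA1 copies had 178 and 266, against 2234 and 2383 for HNRNPA1 itself. How the authors treated reads that fit both a gene and its copy is not given in the sources used here, so how many reads moved between them was not tested. Genes on the same strand within a member, MIR7-1 in HNRNPK and AC078778.2 over HNRNPA1, had 0 reads. The other overlapping genes lie on the opposite strand, and direct RNA reads carry their strand.

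Other genes of the hnRNP family, 20 by a list of symbols, were read in the same libraries. Of these, 18 had a read, and 1 differed between the libraries in count: PCBP2, a poly(C)-binding KH domain protein, with 466 and 657 reads (log2 ratio 0.34, adjusted p = 0.00314, exact binomial test). Among all 10634 genes tested for counts, 5.05% were called, so 1 of 18 is near that share. Levels of the family genes ran from 619 and 658 reads for PCBP1 to 13 and 8 for HNRNPLL, and RALYL and HNRNPCL1 had 0 reads. The known share was lower in replicate 2 in 7 of the 16 family genes with enough reads and higher in 0, with medians of 25.1% and 17.5%, beside 24.4% and 12.6% for the 10 members. The ISM share rose in 7 of 15, the NIC and NNC share fell in 2 of 15, and the genomic share rose in 3 of 16, with genomic medians of 11.9% and 17.2%. Over all genes tested the called shares were 26.9% (known, lower), 35.3% (ISM, higher), 3.93% (NIC and NNC, lower) and 10.4% (genomic, higher).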

How the data were processed

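RNA was extracted with a column kit and depleted RNA went into a direct RNA library, with a reverse transcription step against secondary structure, per the labels' protocols. What the authors deposited is a table of unnormalized read counts, with a line per transcript model and a column per library. The exon number and length of each model, also deposited, are other properties that were not measured. The table's own naming points to TALON, and the submitters' processing notes name minimap2 and hg38; filters and versions are not given in the sources used here. All 23533 known models matched GENCODE release 29 by identifier, exon number and length, so positions come from there.

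Members and lists were chosen with earlier results of these data known. Gene counts are sums over models; CPM are those counts scaled to a common library total. Log2 ratios used 0.5 added reads. Counts were tested by exact binomial tests (genes with at least 10 reads) and shares by Fisher's exact tests (at least 20 reads in each library; known models with at least 10 reads), two-sided, Benjamini-Hochberg adjusted over all genes or models, threshold 0.05. With 1 library a side, edgeR and DESeq2 served for scaling factors alone. Intervals (95%) cover counting error only. All 10 members are named; of their models, known ones with at least 10 reads (at most 4 a gene), NIC and NNC ones with at least 10 reads in each library (at most 2 a gene) and an ISM model that outnumbers every known model; exceptions are marked. The tests were tried on simulated data with known changes. Alternatives changed scaling, minimum reads, models counted and denominators. Python 3.11.15, scipy 1.17.1, R 4.3.3, edgeR 4.0.16 and DESeq2 1.42.0 were used. No protein sequences were used here. An alternative exon is not reported here.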

Additional observations from a re-analysis of the deposited data

How the results depend on the processing

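Counting known models alone, the summed level of the 10 genes was 2456 CPM, and without genomic models 4159, beside 4697 with all models. Members called in counts were then 5 and 2 in place of 1. Over all genes 1042 and 723 were called, in place of 537 of the 10634 tested with all models. Known models alone moved the median log2 ratio of all genes to -0.26. Of the 5 members then called, HNRNPK (1.4) and HNRNPM (1.46) turned higher in replicate 2. The others called, HNRNPA1 (-0.41), HNRNPA2B1 (-0.78) and HNRNPU (-1.21), were lower. HNRNPDL (-0.45, adjusted p = 0.0815) and HNRNPR (-1.09, adjusted p = 0.396, exact binomial tests) turned lower without being called. Without genomic models HNRNPR was also lower (-0.64) and not called, and the 2 called were HNRNPH1 (0.80) and HNRNPK (-0.26). With models of at least 2 exons, 1008 genes were called for the known share in place of 1721, 128 for the NIC and NNC share in place of 194, and 0 genes and 0 members for the genomic share, whose mean over the members was then 0.0194%. Member models called in usage were 1 at a minimum of 20 reads, 9 with all reads of the gene as denominator and 1 with known, NIC and NNC reads, in place of 0. All models called at these settings were 527, 1343 and 507, in place of 579. With all reads as denominator the difference in percentage points turned negative for HNRNPU-226 (-1.85), HNRNPU-219 (-0.59), HNRNPD-203 (-8.21), HNRNPD-202 (-0.93), HNRNPDL-201 (-22.67), HNRNPDL-202 (-1.10), HNRNPA1-205 (-0.22), HNRNPA1-202 (-0.67) and HNRNPC-206 (-3.43), and with known, NIC and NNC reads for HNRNPDL-201 (-2.79) and HNRNPDL-202 (-0.18). The mean number of exons per read was 7.67 without genomic models. The cause of these shifts was not tested. Among the summary values 66 stayed within their limits, a ratio to the main setting for counts and the SD over the libraries for means. The 723 genes and the 527 and 507 models above are among them. These limits are wide. They held 1283 genes called for the known share without genomic models, in place of 1721. They also held a pooled known share of 34.3% with models of at least 2 exons, beside 26.8%. For values that leave out a replicate the outcome was fixed in advance, because each library lies within that SD of the mean. Tests cannot be run with 1 library left out. No paired analysis was possible because both libraries form 1 group. In replicate 2, HNRNPC, HNRNPM, HNRNPU, HNRNPH1 and HNRNPR had 7 to 47 near-complete reads each.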
